A study of Mus musculus with 16 samples.

Results

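The genes described here encode 9 ligands of the transforming growth factor beta (TGF-beta) family that oocytes are known or proposed to secrete: Gdf9, Bmp15, Bmp6, Gdf3, Tgfb1, Tgfb2, Nodal, Inhba and Inhbb. They were chosen by symbol, as the probe sets whose platform annotation gave exactly 1 of these names, and each gene had 1 such probe set, so they are 9 of the 18820 genes read by the 21218 probe sets with a single symbol. RNA came from oocytes of C57BL/6 mice 12 days old, with 80 oocytes in each sample, and was amplified and hybridised to 16 Affymetrix Mouse 1.1 ST arrays. Each of 4 genotypes was sampled with 4 biological replicates, namely wild type, knockout of Hdac1, knockout of Hdac2 and a knockout of both genes, here the double knockout. The knockouts combined conditional alleles of Hdac1, Hdac2 or both with a Cre transgene under the promoter of Zp3, an egg-coat gene, so that deletion begins in growing oocytes; whether wild-type animals carried any of these alleles or the transgene was not stated in the labels. Hdac1 and Hdac2 encode histone deacetylases, and the comparisons ask how each enzyme, and both together, bear on transcripts of the growing oocyte.

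TGF-beta family ligands are made as precursors that pair into dimers, are cut by proteases and are released from the cell. They bind type I and type II receptor serine kinases, which phosphorylate SMAD proteins that then act on target genes in the nucleus. In the ovary, Gdf9 and Bmp15 are best known as signals from the oocyte that drive the surrounding granulosa cells to divide and differentiate.

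The values are deposited log-scale signals, treated as log2; the base is not stated, and every fold below rests on that reading. The Hdac1 probe set read 15.8% of the wild-type signal with Hdac1 deleted, 129% with Hdac2 deleted and 32.5% with both deleted. The Hdac2 probe set read 93.5% with Hdac2 deleted and 86.2% with both deleted; whether it lies in the deleted part was not tested, so it does not check the Hdac2 labels. All 13 oocyte markers were brighter than the 95th percentile of 1006 olfactory receptor probe sets, a reference for genes not read in oocytes, which lay at 4.28 log2. Arrays of the same genotype correlated at 0.993 to 0.995. Array medians were 4.46 to 4.48 in wild type and 4.54 to 4.59 in the double knockout, which bears on small differences below. With 4 arrays a group, the number of arrays limits the precision, and in pooled oocytes less RNA per cell cannot be told apart from fewer cells that express a gene.

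The ligand genes fell into a bright and a dim set on these arrays. Gdf9 (probe set 10376004, chromosome 11) averaged 12.45 log2 over the 16 arrays, and 3 tested probe sets were brighter. Bmp15 (10603270, chromosome X) averaged 12.10, with 21 tested probe sets brighter. Bmp6 (10404686, chromosome 13) averaged 9.78 and Tgfb2 (10360920, chromosome 1) between 9.87 and 10.07 in the 4 genotypes, both in the brightest part of the table, with 11.5% and 9.84% of tested probe sets above them. Inhba (10403743, chromosome 13) averaged 5.20, above the 95th percentile of the olfactory receptor reference. The other 4 averaged below its 95th percentile: Gdf3 (10547633, chromosome 6) at 3.81, Tgfb1 (10551185, chromosome 7) at 3.74, Nodal (10363481, chromosome 10) at 4.12 and Inhbb (10357155, chromosome 1) at 4.09. For these 4 dim genes a difference between genotypes would be understated by the background signal. Probe sets differ in their sensitivity, so these positions rank no gene against another.

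The upstream sequences of Bmp15 and Tgfb2 are shown because these were the 2 ligand genes whose levels differed from wild type under at least 1 scaling of the arrays. RefSeq promoter entries on GRCm38.p6 were found for 7 of the 9 genes, not for Gdf9 and Gdf3. The 250 bases before the start of Bmp15 lie at chrX:6320725-6320974 and those of Tgfb2 at chr1:186705990-186706239, both on the minus strand and printed 5′ to 3′ along the gene. Capitals mark matches, on either strand, to 3 motifs that did not overlap one another here: the E-box CANNTG, bound by basic helix-loop-helix factors such as FIGLA and the SOHLH proteins, the TATA box TATAAA, and TAATTG or TAATTA, the element bound by the oocyte factor NOBOX.
Bmp15: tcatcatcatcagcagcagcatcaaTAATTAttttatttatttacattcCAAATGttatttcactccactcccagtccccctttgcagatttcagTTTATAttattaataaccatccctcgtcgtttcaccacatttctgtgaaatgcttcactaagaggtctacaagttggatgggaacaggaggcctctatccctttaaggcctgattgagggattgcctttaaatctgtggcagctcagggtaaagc
Tgfb2: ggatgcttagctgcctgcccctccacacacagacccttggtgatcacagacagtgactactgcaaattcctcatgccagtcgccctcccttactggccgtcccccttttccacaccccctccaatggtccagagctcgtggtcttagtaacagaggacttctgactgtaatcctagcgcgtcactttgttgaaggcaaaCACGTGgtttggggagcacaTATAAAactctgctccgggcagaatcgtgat
Bmp15 held 1 NOBOX element at position -225 from the start, 1 E-box at -201 and 1 TATA match, read on the opposite strand, at -155. Tgfb2 held 1 E-box at -51 and 1 TATA box at -31, the usual distance for a TATA box, and no NOBOX element. Among 32841 mouse promoters of this length, 66.2% held the E-box, 12.4% the TATA box and 11.3% the NOBOX element. The GC content was 40.4% in Bmp15 with 2 CpG dinucleotides and 53.6% in Tgfb2 with 8, against medians of 52.4% and 6 over all promoters. Bmp6, the other bright gene with an entry, had 68.8% GC, 22 CpG dinucleotides and 2 E-boxes. These matches describe letters in the window and show no binding.

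Gdf9 encodes growth differentiation factor 9, an oocyte ligand required for follicles to grow past the primary stage. Its log2 signal was 12.45, 12.45, 12.51 and 12.45 on the wild-type arrays, 12.49, 12.44, 12.50 and 12.41 without Hdac1, 12.39, 12.40, 12.43 and 12.46 without Hdac2, and 12.45, 12.45, 12.44 and 12.50 without either. The 4 genotypes overlapped, the Hdac2 knockout had the lowest mean, and all 16 arrays lay within 0.119 log2 of each other. The double knockout stood at 99.7% of the wild-type signal (log2 difference -0.0039 ± 0.0434 SE, limma adjusted p = 0.961). Its 95% interval ran from 0.936-fold to 1.06-fold. The level lay near the highest value of the table, 12.89.

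Bmp15 encodes bone morphogenetic protein 15, the X-linked partner of Gdf9 with which it forms a heterodimer. The signal was 12.05, 12.12, 12.20 and 12.10 in wild type, 12.26, 12.10, 12.10 and 12.14 without Hdac1, 12.04, 12.06, 12.10 and 12.08 without Hdac2, and 12.05, 12.02, 12.05 and 12.07 without either. The means ran Hdac1 knockout (12.15), wild type (12.12), Hdac2 knockout (12.07), double knockout (12.05), and no neighbours in that order differed past the test. All double-knockout arrays lay below all Hdac1-knockout arrays, as did all Hdac2-knockout arrays, while double knockout and wild type overlapped. The single knockouts were barely apart, the highest Hdac2-knockout array at 12.0963 and the lowest Hdac1-knockout array at 12.0972. Against wild type the double knockout differed by -0.07 ± 0.05 SE (limma adjusted p = 0.306), and against the Hdac1 knockout by -0.10 (adjusted p = 0.131; exact permutation p = 0.0286).

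The Bmp15 result depended on how the arrays were scaled. With each array centred on its own median, the double knockout lay 0.16 log2 below wild type (-0.16, limma adjusted p = 0.0179), and with quantile normalization 0.14 below (-0.14, adjusted p = 0.0373). Median centring moved the median of all genes in this comparison from -0.01 to -0.10, a shift that it applies to every gene alike. Quantile normalization moved that median to -0.04. Gdf9, moved likewise, reached -0.10 with median centring and did not pass (adjusted p = 0.104).

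Bmp6 encodes bone morphogenetic protein 6, a ligand that oocytes and granulosa cells both make. Its signal was 9.71, 9.76, 9.68 and 9.70 in wild type, 9.99, 9.74, 9.89 and 9.59 without Hdac1, 9.76, 9.78, 9.81 and 9.73 without Hdac2, and 9.89, 9.72, 9.89 and 9.79 without either. The wild-type arrays were low and close together, the Hdac1-knockout arrays held both the highest and the lowest value, and every knockout overlapped wild type. The mean rose in the order wild type (9.71), Hdac2 knockout (9.77), Hdac1 knockout (9.81), double knockout (9.82), with no pair past the test. The double knockout differed from wild type by 0.11 ± 0.07 SE (limma adjusted p = 0.254; exact permutation p = 0.0571), with an interval of 0.972-fold to 1.2-fold.

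Tgfb2, encoding TGF-beta 2, was the 1 ligand gene of the 9 whose level differed between genotypes. The signal was 10.07, 10.12, 10.04 and 10.06 in wild type, 10.08, 10.07, 10.12 and 9.94 without Hdac1, 9.91, 9.99, 10.05 and 9.99 without Hdac2, and 9.89, 9.82, 9.88 and 9.90 without either. All 4 double-knockout arrays lay below all 12 others, and the single knockouts overlapped each other. The double knockout fell by 0.20 ± 0.05 SE log2 against wild type, to 86.9% of its signal (limma adjusted p = 0.004; exact permutation p = 0.0286, the smallest that 4 against 4 arrays can give). It fell by 0.18 against the Hdac1 knockout (adjusted p = 0.00839).

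The step from the Hdac2 knockout to the double knockout did not pass: Tgfb2 differed by -0.11 (95% interval -0.22 to -0.01, limma adjusted p = 0.0963), although the arrays did not overlap. It passed with the arrays centred on their medians or quantile normalized, and when dim probe sets were left out, which shortens the list that p is adjusted over. The Hdac2 knockout lay -0.09 from wild type (limma adjusted p = 0.381) and the Hdac1 knockout -0.02 (adjusted p = 0.955). In the order wild type (10.07), Hdac1 knockout (10.05), Hdac2 knockout (9.99), double knockout (9.87), no neighbours differed past the test. The interaction term, by which Hdac1 and Hdac2 loss together differ from their effects added up, was -0.09 (limma adjusted p = 0.397), so a joint effect beyond their addition was not detected. The fall against wild type is smaller than 1.4-fold, the limit in the study's design text.

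**Figure D1:**
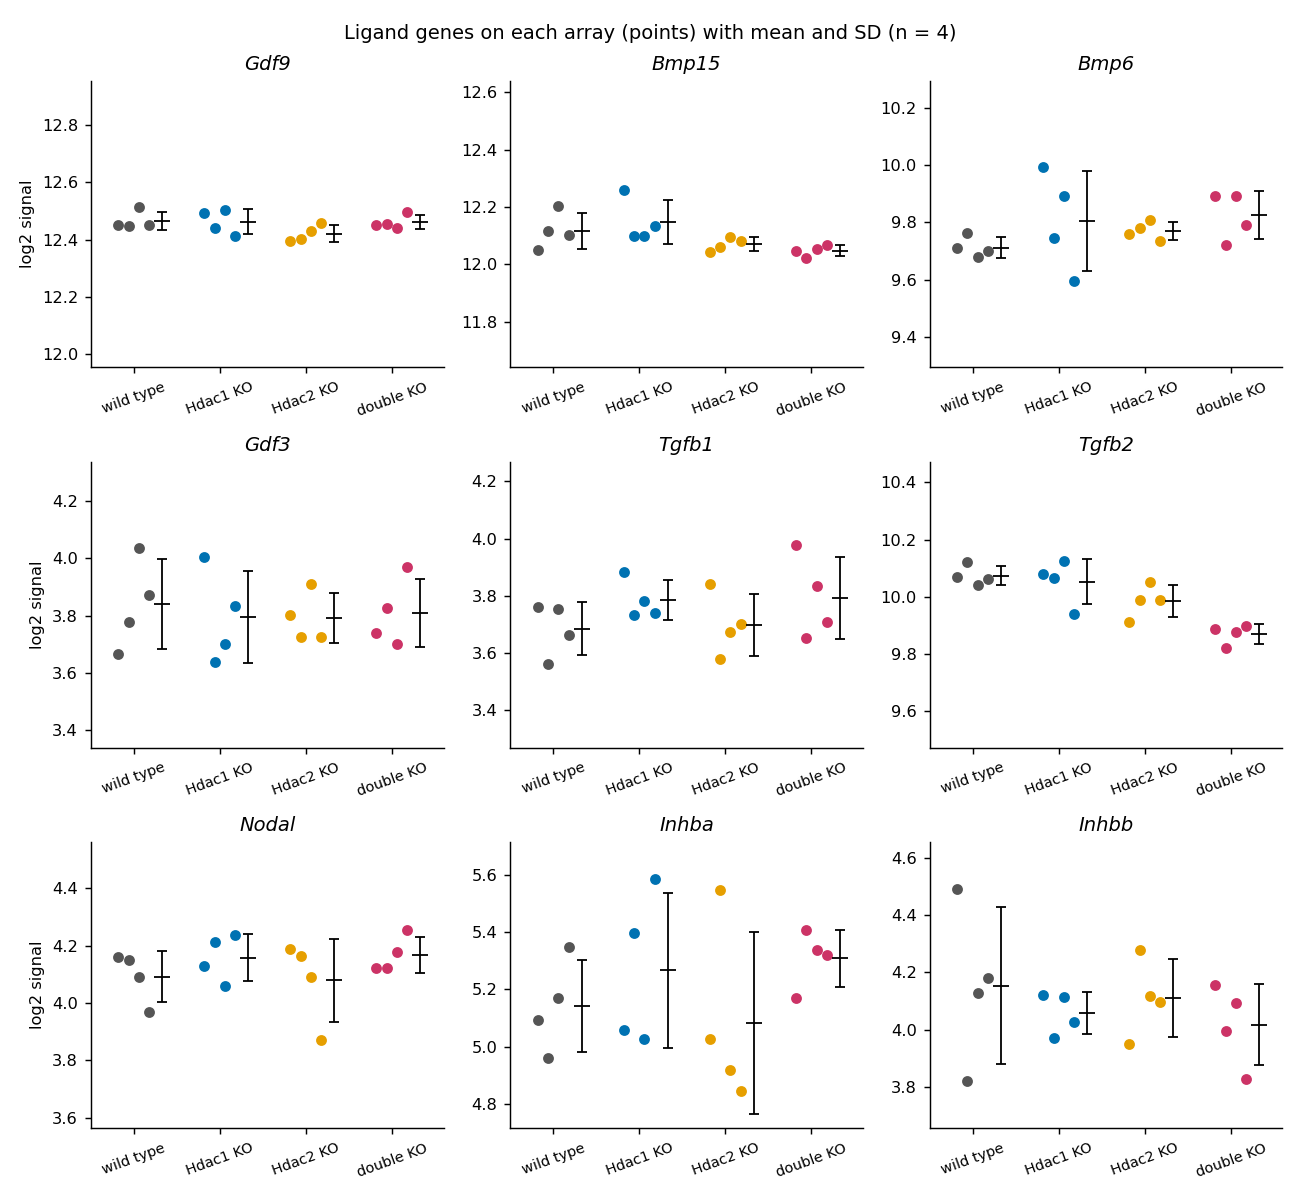
Log2 signal of the 9 ligand genes on each of the 16 arrays, 1 point an array in replicate order, with the mean and SD of the 4 arrays of each genotype (KO, knockout); each panel spans 1 log2 unit around its own values. In the Tgfb2 panel the 4 double-knockout points (9.82 to 9.90) lie below all others, while in the other panels the double knockout overlaps wild type.

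Tgfb1 encodes TGF-beta 1, a ligand of many cell types. Its signal was 3.76, 3.56, 3.75 and 3.66 in wild type, 3.88, 3.73, 3.78 and 3.74 without Hdac1, 3.84, 3.58, 3.67 and 3.70 without Hdac2, and 3.98, 3.65, 3.83 and 3.71 without either. All groups overlapped, and the double knockout differed from wild type by 0.11 ± 0.08 SE (limma adjusted p = 0.302). Its mean lay below the 95th percentile of the olfactory receptor probe sets in every genotype.

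Inhba and Inhbb encode the beta subunits of activins and inhibins. Inhba read 5.09, 4.96, 5.17 and 5.35 in wild type, 5.06, 5.40, 5.03 and 5.59 without Hdac1, 5.03, 5.55, 4.92 and 4.84 without Hdac2, and 5.17, 5.41, 5.34 and 5.32 without either. It varied most of the 9 within genotypes (SD 0.229), the groups overlapped throughout, and 1 Hdac2-knockout array stood well above the others of its group. The double knockout differed from wild type by 0.17 ± 0.15 SE (limma adjusted p = 0.419) and from the Hdac2 knockout by 0.22 (adjusted p = 0.267). Without that Hdac2-knockout array, replicate 2, the latter difference was 0.38 and passed (adjusted p = 0.0287).

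Inhbb read 4.49, 3.82, 4.13 and 4.18 in wild type, 4.12, 3.97, 4.12 and 4.03 without Hdac1, 3.95, 4.28, 4.12 and 4.10 without Hdac2, and 4.16, 3.99, 4.09 and 3.83 without either. The wild-type arrays held both the highest and the lowest value. The double knockout differed from wild type by -0.14 ± 0.11 SE (limma adjusted p = 0.388).

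Nodal, a ligand of early embryonic patterning, read 4.16, 4.15, 4.09 and 3.97 in wild type, 4.13, 4.21, 4.06 and 4.24 without Hdac1, 4.19, 4.17, 4.09 and 3.87 without Hdac2, and 4.12, 4.12, 4.18 and 4.25 without either. Gdf3, a ligand related to Nodal signalling in the early embryo, read 3.67, 3.78, 4.04 and 3.87, then 4.003, 3.64, 3.70 and 3.84, then 3.80, 3.73, 3.91 and 3.72, then 3.74, 3.83, 3.70 and 3.97 in the same order of genotypes. Neither gene separated any pair of genotypes. The double knockout differed from wild type by 0.08 ± 0.07 SE in Nodal (limma adjusted p = 0.455) and by -0.03 ± 0.09 SE in Gdf3 (adjusted p = 0.842).

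Over all genotypes, 1 of the 9 ligand genes passed limma's F test, against a background of 40.1% of all tested probe sets. In the Hdac1 knockout 0 of 9 passed against wild type, where the background was 0.0707%. There 0 of 9 reached an unadjusted limma p of 0.05 (background 8.7%), and 0 had arrays that did not overlap, the condition for the smallest exact permutation p (background 5.23%). For loss of Hdac2 alone 0 of 9 passed (background 5.59%), again with 0 at an unadjusted limma p of 0.05 (background 18.5%) and 0 with arrays apart (background 13.5%). In the double knockout 1 of 9 passed, Tgfb2, where 38.3% of probe sets passed, 18.5% higher and 19.8% lower. Tgfb2 was also the 1 gene at an unadjusted p of 0.05 (background 44.9%) and the 1 gene with arrays apart (background 35.8%). Whether the ligand genes passed less often than other genes was not tested. For the 4 dim genes, background signal would understate a fall.

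All 27 intervals of a ligand gene in a knockout against wild type lay inside 1.4-fold in either direction, the furthest reaching 1.39-fold for Inhba in the double knockout. Of all tested probe sets, 69.8% had such an interval with both genes lost, 88.1% with Hdac2 lost and 94.1% with Hdac1 lost. The median size of the log2 difference in the double knockout was 0.108 over the 9 genes and 0.148 over all probe sets. Of these intervals 12 belong to Gdf3, Tgfb1, Nodal and Inhbb, whose signal lay at the level of the reference, so for these 4 genes they bound the measured signal and not the transcript. For Gdf9 and Bmp15, both near the top of the table, the double-knockout intervals were narrow, 0.936-fold to 1.06-fold and 0.885-fold to 1.02-fold. Whether signals so near the top still follow the transcript was not tested, so these intervals too bound the measured signal.

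**Figure D2:**
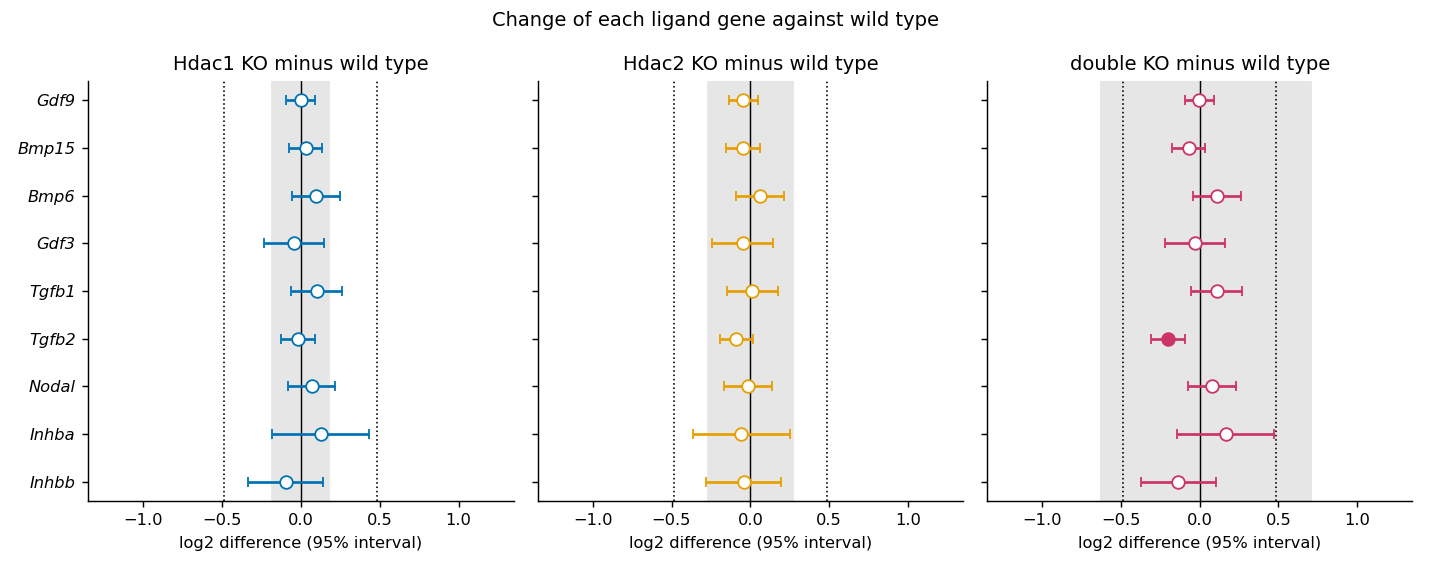
Log2 difference of each ligand gene in each of the 3 knockouts against wild type, with its 95% limma interval; filled points passed at an adjusted p under 0.05, dotted lines mark 1.4-fold, and grey bands span the 5th to 95th percentile of all tested probe sets. Tgfb2 in the double knockout (-0.20) is the 1 filled point, and all 27 intervals stay between the dotted lines while the grey band widens to -0.63 to 0.71 in the double knockout.

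Comparisons among the knockouts added few differences. Double against Hdac1 knockout passed in 1 of 9, Tgfb2 (background 38.7%), also the 1 gene at an unadjusted limma p of 0.05 (background 45.6%); arrays did not overlap in 2, Tgfb2 and Bmp15 (background 35.6%). Double against Hdac2 knockout passed in 0 of 9 (background 33.7%), with 1, Tgfb2, at an unadjusted limma p of 0.0379 (background under 0.05, 41.7%) and with arrays apart (background 31.7%). Hdac2 against Hdac1 knockout passed in 0 of 9 (background 5.78%), with 0 at an unadjusted limma p of 0.05 (background 18.6%) and 1, Bmp15, with arrays barely apart (background 12.5%). The interaction term passed in 0 of 9 (background 23.3%), with 0 at an unadjusted p of 0.05 (background 34.2%). Over all 54 pairs of a gene and 2 genotypes, 2 passed and 5 had arrays that did not overlap, 3 of them in Tgfb2 and 2 in Bmp15. These pairs reuse the same arrays, and their background shares are those given for each comparison.

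The genes whose log2 signal followed Tgfb2 most closely over the 16 arrays, by the smallest root-mean-square difference after centring, were Timm17a, a subunit of the mitochondrial inner membrane import machinery (0.0279), and Herpud2, a relative of an endoplasmic reticulum stress protein (0.0373). Their differences in the double knockout were -0.22 (limma adjusted p = 0.00116) and -0.16 (adjusted p = 0.016); a second Timm17a probe set stood at -0.14 (adjusted p = 0.0772). They were picked from all genes for this likeness, which tests nothing.

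Markers of other cells and of the oocyte were read beside the Tgfb2 fall. The 13 oocyte markers summed to 39679.9 to 41303.2 in linear signal in wild type and 41327.3 to 41944.7 in the double knockout. Without the brightest of them the sums overlapped, 35032.1 to 36525.6 and 36343.5 to 37214.8. The summed linear signal of 12 granulosa markers was 1080.1 to 1170.9 in wild type and 698.9 to 751.4 in the double knockout, with 6 and 7 of 12 above the olfactory reference; without the brightest, Nr5a2, it was 229.5 to 251.3 and 271.8 to 343.3. Stroma and theca markers summed to 120.6 to 126 and 123.1 to 131.3, with 2 of 8 above the reference in both groups. The sum of 6 blood, immune and endothelial markers, 2 of 6 above the reference in both, was 422.5 to 478.7 in wild type and 221.8 to 275 in the double knockout. Without the brightest of them, Pecam1, the sum was 94.9 to 115.8 and 111.3 to 123.2. In the double knockout 3 granulosa markers rose, Gja1 and Inha among them, and 2 fell, Nr5a2 and Kitl, the same counts as with median centring. Over all probe sets 18.5% rose and 19.8% fell, and with median centring 2895 of 21218 rose and 6506 fell. Of the stroma and theca markers 1 rose, Acta2, below the reference in wild type, and 0 fell, or 0 and 2 with median centring. Of the blood, immune and endothelial markers 1 rose, Cd68, and 1 fell, Pecam1, or 0 and 2 with median centring. The counts of these latter lists thus moved with the scaling. Amh, a granulosa marker that did not pass, lay at 3.45 in wild type and 3.43 in the double knockout, below the olfactory 95th percentile. The part of these shifts in the Tgfb2 result was not tested.

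The ligand genes belong to a family whose other members were read on the same arrays. Of 20 such genes, 4 rose and 3 fell in the double knockout, with a median difference of -0.02 against -0.01 over all genes. In the Hdac2 knockout 2 rose and 1 fell (background 5.59% passing), and in the Hdac1 knockout 0 passed (background 0.0707%). Over all probe sets 18.5% rose and 19.8% fell in the double knockout, 3924 and 4198 of 21218. With median centring the count for these ligands was 4 and 5, and 2895 and 6506 of all probe sets rose and fell. Gdf11, a ligand of axial patterning, read 5.18, 5.25, 5.72 and 5.60 in wild type, 5.20, 5.99, 5.67 and 5.25 without Hdac1, 7.72, 6.78, 7.24 and 7.19 without Hdac2, and 10.13, 9.90, 10.22 and 9.95 without either. Its groups stepped up without overlap from wild type to the Hdac2 knockout (3.47-fold, limma adjusted p = 6.36e-05) and to the double knockout (24.5-fold, adjusted p = 1.81e-11). Tgfb3, the relative of Tgfb1 and Tgfb2, read 7.42, 7.54, 7.22 and 7.25 in wild type and 6.27, 6.28, 5.92 and 6.76 in the double knockout, a fall of 1.05 ± 0.16 SE (adjusted p = 6.41e-05). Tgfb2 and Tgfb3 therefore both fell, by unequal amounts.

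Bmp2, a bone morphogenetic protein, rose 2.08-fold in measured signal in the double knockout, from a wild-type level below the olfactory 95th percentile, so that background signal may understate it (limma adjusted p = 1.34e-06). Bmp7 rose by 0.72 log2 in the double knockout (adjusted p = 0.000161) and by 0.57 in the Hdac2 knockout (adjusted p = 0.0128), while a dimmer second Bmp7 probe set differed by 0.05 (adjusted p = 0.683). Inha, the alpha subunit that turns an activin dimer of Inhba or Inhbb into an inhibin, rose by 0.59 from a wild-type level just below the same percentile (adjusted p = 0.021), with arrays that overlapped wild type. Bmp5 fell by 0.48 (adjusted p = 0.00128) and Gdf2, below that percentile in both groups, fell by 0.18 (adjusted p = 0.0353). Inhbc, below that percentile in wild type and the Hdac2 knockout, fell by 0.28 in the latter (adjusted p = 0.0477). Inha, Bmp5, Gdf2 and Inhbc were named after their values were seen, to complete the counts, as were Amh and Nobox for their roles.

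**Figure D3:**
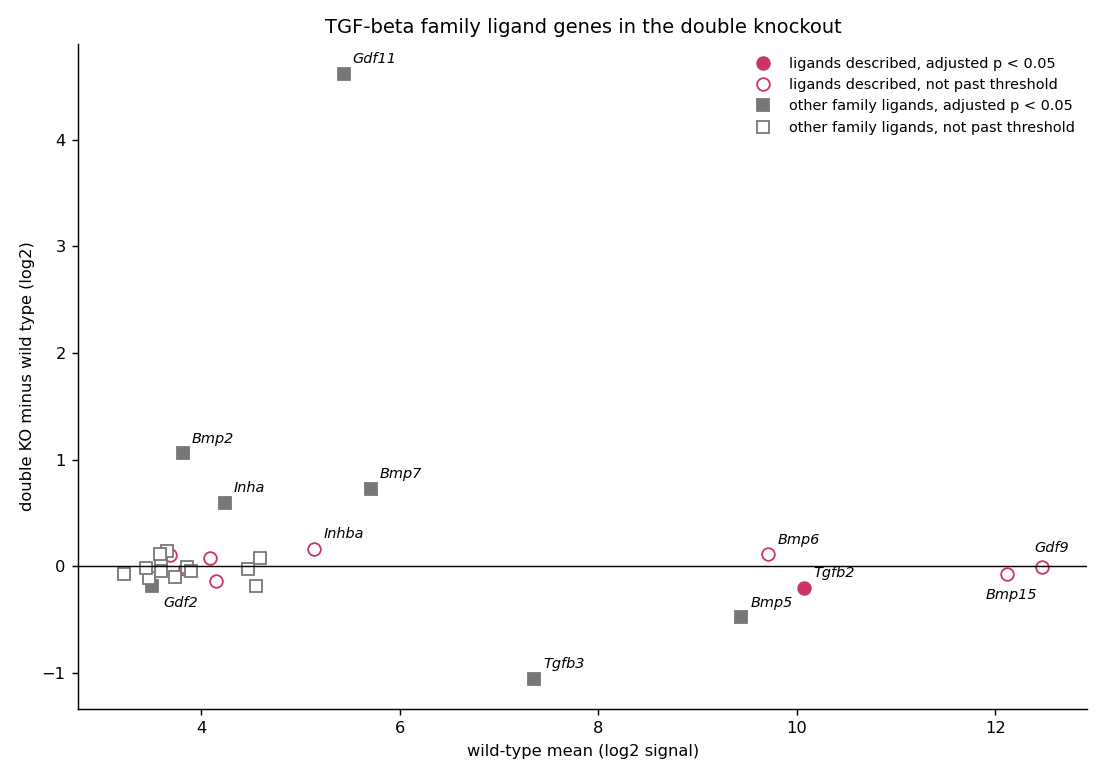
Log2 difference in the double knockout against the wild-type log2 mean for the 9 ligand genes (circles) and 20 other ligand genes of the family (squares), each point 1 gene and filled where the limma adjusted p was under 0.05. Gdf11 stands at 4.61 and Tgfb3 at -1.05, while Gdf9, Bmp15, Bmp6 and Tgfb2 lie at the bright end between -0.20 and 0.11.

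Genes that process or hold back the ligands gave mixed counts in the double knockout, where 18.5% of all probe sets rose and 19.8% fell. The counts here and in the next paragraphs moved with the scaling, and so did those over all 21218 probe sets. These were 3924 higher and 4198 lower as deposited, 2895 and 6506 with median centring, and 3382 and 5025 with quantile normalization. Of 8 proteases, 2 rose and 1 fell, or 2 and 3 with median centring. Adamts1, a matrix protease whose wild-type level lay below the olfactory 95th percentile, rose by 1.07 in measured signal (limma adjusted p = 4.24e-05), Pcsk6, a proprotein convertase, rose by 1.04 (adjusted p = 4.27e-05) and Tll1, a relative of Bmp1, fell by 0.75 (adjusted p = 2.58e-07). Furin, which cuts ligand precursors, rose by 0.27 in the Hdac2 knockout (adjusted p = 0.0286) and stood at 0.08 in the double knockout (adjusted p = 0.402), a value whose sign turned with the scaling. Of 15 antagonists and latency proteins, 2 rose and 2 fell, or 2 and 3 with median centring. Ltbp1, which tethers latent TGF-beta to matrix and was also below that percentile in wild type, rose by 1.81 in measured signal (adjusted p = 2.17e-11) and Bambi, a decoy receptor, by 1.14 (adjusted p = 1.57e-08). Ltbp3, a relative of Ltbp1, fell by 0.22 (adjusted p = 0.0475) and Dand5, an antagonist of Nodal, by 0.20 (adjusted p = 0.0268).

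Of 17 receptors and co-receptors, 4 rose and 6 fell in the double knockout, with a median of -0.06. In the Hdac2 knockout 2 of them fell, where 5.59% of all probe sets passed. With median centring 2 rose and 7 fell in the double knockout, with a median of -0.15. The type I receptors Acvr1 and Acvr1b fell by 1.03 (limma adjusted p = 5.29e-08) and 0.54 (adjusted p = 3.24e-06), and Acvr1 also fell by 0.45 in the Hdac2 knockout (adjusted p = 0.00419), as did the co-receptor Rgmb by 0.25 (adjusted p = 0.049). Of 8 SMAD genes, 3 rose and 1 fell, or 3 and 3 with median centring and 3 and 2 with quantile normalization. The inhibitory Smad7 rose by 1.52 (adjusted p = 2.13e-06) and Smad5, which BMP receptors phosphorylate, by 0.44 (adjusted p = 0.00284). Smad1, of the same BMP branch, rose by 0.34 (adjusted p = 0.00433), and Smad3, which activin and TGF-beta receptors phosphorylate, fell by 0.28 (adjusted p = 0.00519). Of 13 intracellular modulators, 2 rose and 5 fell, or 1 and 6 with median centring. The corepressor Tgif1 was lower by 0.92 (-0.92, adjusted p = 8.46e-06) and Zeb1 by 0.62 (-0.62, adjusted p = 5.34e-05). Nedd4l, a ubiquitin ligase for SMADs, fell by 0.82 in the Hdac2 knockout (adjusted p = 0.000721).

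Of 10 genes known as SMAD targets, 7 rose and 0 fell in the double knockout, with a median difference of 0.66 log2, where 18.5% of all probe sets rose, 19.8% fell and the median was -0.01. Id2, an inhibitor of basic helix-loop-helix factors, rose by 1.52 (limma adjusted p = 2.03e-07); Smad7 and Bambi, given above, are also on this list. Under each scaling tried 7 of the 10 rose, and with median centring 1 fell. In the Hdac1 knockout 0 of the 10 passed, where 0.0707% of all probe sets did, and in the Hdac2 knockout 0, where 5.59% did. Like the others, this list was chosen with earlier results of these data known, so its count beside the background tests nothing. What these rises say of SMAD activity was not measured here.

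Of 9 oocyte factors that act on ligand genes or on oocyte identity, 2 rose and 1 fell in the double knockout, or 2 and 3 with median centring and 2 and 2 with quantile normalization. Figla, a basic helix-loop-helix factor, fell by 0.56 (limma adjusted p = 0.000261) while Sohlh1, of the same class, rose by 1.08 (adjusted p = 0.000811) and Foxo3 by 0.26 (adjusted p = 0.000228). Nobox, whose element stands upstream of Bmp15, was at -0.04 (adjusted p = 0.583). Of 13 oocyte markers, 0 rose and 2 fell, Figla and Kit (-0.17, adjusted p = 0.0154), or 0 and 4 with median centring and 0 and 3 with quantile normalization. List medians were small beside the scaling: centred on array medians, the median of oocyte markers went from 0.04 to -0.05, that of the SMAD genes from 0.04 to -0.05 and that of the proteases from 0.06 to -0.03.

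**Figure D4:**
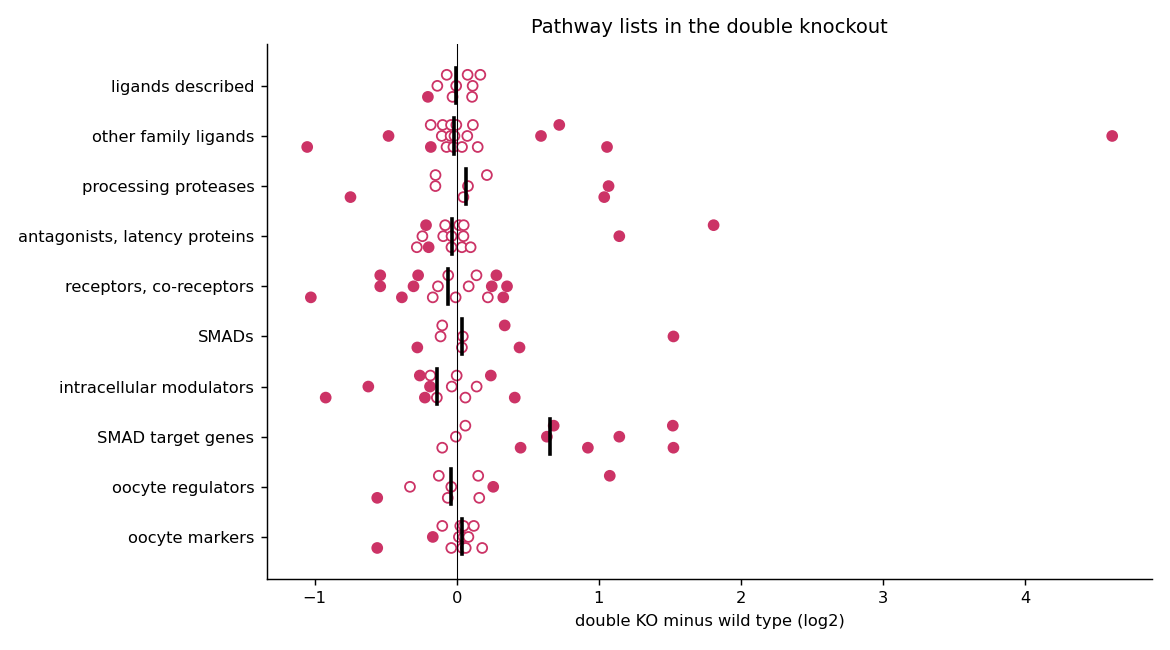
Log2 difference in the double knockout against wild type for the 9 ligand genes and 9 lists of related genes, 1 point a gene, filled where the limma adjusted p was under 0.05, with a bar at each list's median. The 9 ligand genes span -0.20 to 0.17, and the SMAD target genes have their median at 0.66 with 7 of 10 filled on the right.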

How the data were processed

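Arrays were read from the series table of deposited log2 values, 1 per probe set and array (35556 probe sets, 16 arrays). The submitters' processing notes name MAS5 without a version. The series' design text also names GeneSpring, SAM and EASE; how the authors combined them is not given in these sources, nor is the base of the log, for which 2 was inferred from the range of the values. Probe sets were named through the platform annotation: 21218 had exactly 1 symbol, 1881 several and 12457 none.

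Values were used as deposited. Genotype means were fitted over all 16 arrays with limma 3.58.1 (lmFit, contrasts.fit, eBayes) in R 4.3.3, p-values were adjusted by Benjamini-Hochberg over the 21218 probe sets, and an adjusted p under 0.05 passed. Intervals are 95% limma intervals. Single values were also tested with a two-sided exact permutation test over 70 arrangements. The fit was tested on simulated data. The members and the lists were chosen with earlier results of these data known. Named are all 9 ligand genes and genes of each list, to unequal depth between lists. From a list these are 2 to 4 with the lowest adjusted p for the double knockout, where as many passed. Up to 2 that passed in each single knockout are added, with the exceptions given where they are named. Further genes that passed go unnamed. The brightest probe set stood for a gene. Alternatives were array scaling, a filter on dim probe sets, all probe sets, array weights, an intensity trend, the groups compared alone, a 1.4-fold rule, replicate number as a block and each array left out. List symbols that matched no probe set of 1 symbol, such as Tgfbr2 and Fst, were not analysed here.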

Additional observations from a re-analysis of the deposited data

Results flagged for a closer look

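Among the 36 groups of 4 arrays of the ligand genes, 1 held a value set apart by Dixon's criterion at 95%: Gdf9 in wild type, where 1 array read 12.51 log2 and the other 3 read 12.45. Among 160 groups of 40 other genes named here, 7 did. They were Bmp2 (3.56), Foxo3 (7.81), Figla (7.79) and Kitl (4.43) in the Hdac1 knockout, Nr5a2 (9.73) in wild type, Gja1 (6.83) in the double knockout and Pecam1 (8.55) in the Hdac2 knockout. Chance sets apart about 1 in 20 such groups.

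The effect of losing Hdac1 differed between oocytes with and without Hdac2 in 0 of the 9 ligand genes by limma's interaction term on the log2 scale, where 23.3% of all probe sets passed. For the ligand genes 0 also reached an unadjusted p of 0.05. It passed in 23 of those 40 other genes. Most of them were picked for passing in a knockout, so their count is no contrast to the ligand genes. The term was positive in Gdf11 (2.73, adjusted p = 2.72e-06), Ltbp1 (1.84, adjusted p = 5.05e-09), Id2 (1.43, adjusted p = 5.9e-05), Bmp2 (1.27, adjusted p = 3.08e-05), Smad7 (1.24, adjusted p = 0.00131), Adamts1 (1.12, adjusted p = 0.00164), Gja1 (1.05, adjusted p = 0.000734), Bambi (1.02, adjusted p = 1.08e-05), Sohlh1 (1.02, adjusted p = 0.0248), Pcsk6 (0.94, adjusted p = 0.00474), Smad1 (0.78, adjusted p = 0.000206), Nedd4l (0.76, adjusted p = 0.00276), Smad5 (0.42, adjusted p = 0.0499) and Kitl (0.39, adjusted p = 0.0232). It was negative in Pecam1 (-1.44, adjusted p = 1.71e-05), Zeb1 (-1.29, adjusted p = 3.76e-06), Tgfb3 (-1.02, adjusted p = 0.00407), Nr5a2 (-0.84, adjusted p = 5.95e-05), Tll1 (-0.75, adjusted p = 4.1e-05), Acvr1b (-0.61, adjusted p = 0.000115), Acvr1 (-0.54, adjusted p = 0.00292), Tgif1 (-0.50, adjusted p = 0.0373) and Furin (-0.38, adjusted p = 0.00763).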

How the results depend on the processing

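Tgfb2 fell in the double knockout against wild type under all 26 alternatives (-0.29 to -0.19 log2) and passed in 25 (limma adjusted p 0.000242 to 0.0153), the exception being the rule that also asks for 1.4-fold. The count of ligand genes that passed in the double knockout against wild type was 1, where 38.3% of all probe sets passed. It was 2, Bmp15 added, with median centring (44.3% of all) or quantile normalization (39.6%), and 0 with the 1.4-fold rule (16.4%). Against the Hdac1 knockout the count was 1 (38.7% of all). It was 2, Bmp15 added, with median centring (43.8%), quantile normalization (40.3%) or an intensity trend (39.3%), and 0 with the 1.4-fold rule (16.6%). Against the Hdac2 knockout the count was 0 (33.7% of all). It was 1, Tgfb2, with median centring (36.2%), quantile normalization (34.5%) or dim probe sets left out (55.7% of those kept). With arrays centred on their 75th percentile, an alternative chosen after seeing the data, it was also 1, Tgfb2 (33.9%). Leaving out each array in turn gave 0 to 1 against the Hdac2 knockout and changed no other count of ligand genes. The 1 was Inhba (0.38, limma adjusted p = 0.0287) without Hdac2-knockout replicate 2, where 30.3% of all probe sets passed. The F test passed 1 gene, and 2 with median centring. No called difference of a ligand gene turned its sign.

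Over the whole table, calls in the double knockout against wild type were 3924 higher and 4198 lower, 2895 and 6506 with median centring, and 3472 in all with the 1.4-fold rule. That rule gave 3518 against the Hdac1 knockout, 2576 against the Hdac2 knockout, 454 for the Hdac2 knockout against wild type (1187 without it), 469 for Hdac2 against Hdac1 knockout (1226 without it) and 2685 for the interaction. The Hdac1 knockout had 15 calls against wild type, 23 with dim probe sets left out, 31 with array weights and 30 without its replicate 4. The Hdac2 knockout had 770 and 722 without wild-type replicate 3 and 4, and 683 and 716 without its own replicate 1 and 4; against the Hdac1 knockout the count was 794 and 785 without Hdac1-knockout replicate 1 and 3, and 752 and 678 without Hdac2-knockout replicate 1 and 4. The cause of these shifts was not tested. With the groups compared alone there is no interaction or F value, and the 1.4-fold rule gives no F value.

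Replicate numbers did not pair the arrays: over 24 same-numbered pairs the correlation of deviations was -0.15 to 0.09, 0 pairs exceeded 0.1, and 2 of 16 arrays correlated best with their own number. With the replicate number as a block, the ligand genes that passed were 0, 0 and 1 against wild type for Hdac1, Hdac2 and double knockout, as without it. Whole-table calls were then 12, 950 and 7885.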

Other observations

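In Tgfb1, replicate 1 was the highest and replicate 2 the lowest of the 4 arrays in each of the 4 genotypes, so that the genotypes shared a pattern over replicate numbers. Of the 21218 probe sets tested, 11 (0.0518%) had the same replicate number highest and the same number lowest in every genotype. The share that unpaired arrays would give by chance was not worked out, so the rarity alone is no sign of pairing. Over the whole table, replicate numbers did not pair the arrays. With the replicate number as a block, the Tgfb1 difference in the double knockout was 0.11 log2, with a limma adjusted p of 0.124 in place of 0.302. The pattern was noticed in these values and no cause was tested.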
